A study of Rattus norvegicus with 13 samples.

Results

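The 10 circadian clock genes Arntl, Clock, Per1, Per2, Per3, Cry1, Cry2, Nr1d1, Nr1d2 and Dbp were followed in rat frontal cortex after head trauma. They were taken by gene name from the array annotation, which gave 16 of the 30367 probes, and all 10 were among the 17244 genes tested. Arntl is also called Bmal1.

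The 13 rats were male Sprague–Dawley animals killed 1 month after the operation. Total RNA of frontal cortex was hybridised to 1-colour Agilent arrays, 1 array per rat. The percussion trauma group (3 rats) had a lateral fluid percussion injury, in which a pressure pulse strikes the exposed brain, and the percussion sham group (4 rats) is the sham group of that model. The rotational trauma group (3 rats) had a head acceleration rotational injury, and the rotational sham group (3 rats) is its sham group. Sham rats had the anesthesia and the surgery of their model but no trauma. The labels give no age, no light schedule and no hour of death.

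The mammalian clock is a feedback loop of transcription. The proteins of Arntl and Clock pair up and switch on the Per and Cry genes, whose proteins return to the nucleus and block that pair, while the nuclear receptors of Nr1d1 and Nr1d2 repress Arntl. Dbp, a transcription factor switched on by the same pair, carries the rhythm to other genes. Levels of most, though not all, of these transcripts therefore vary with the hour at which tissue is taken, in cortex as in other tissues. Per1 and Per2 are also induced by light at the master clock, by glucocorticoids and by neuronal activity. The question was whether the 2 sham groups, and then each trauma group and its own sham, stood alike in these genes.

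The results turn on a small number of probes. The first 30 of the 60 bases of each are given here in the order of the scanner files, 5′ to 3′, with positions in rn4. The probes of Per2, Cry2 and Nr1d1 gave the sham differences, and the 2 probes of Arntl and the 3 of Per3 are shown because probes of these genes gave different answers.
Per2 (chr9:90645610-90645669, minus strand): tgttaactgctaagaagttgacttcctagg
Cry2 (chr3:76802802-76802861, minus strand): ataagactagaacccgcagcagtaaccgtc
Nr1d1 (chr10:87543165-87543519, minus strand, a span wider than the probe): caagaatgttctgctggcatgtcccatgaa
Arntl, brighter probe (chr1:171161969-171162028, plus strand): tgaagttttacagtctgtgaagcttactgg
Arntl, dimmer probe (chr1:171154767-171154826, plus strand): aaccagagctggagcaggaaaaataggtcg
Per3, probe 1, the brightest (chr5:168152779-168152838, minus strand): agatgtcccaccctctccaggtcatgtgga
Per3, probe 2 (chr5:168155353-168155412, minus strand): agacctggaaaaacttcacagcatggagcg
Per3, probe 3 (chr5:168152839-168152898, minus strand): gtgacactgcagaggcctgtgaacagtgtc

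Probes 1 and 3 of Per3 lie side by side, so they read neighbouring stretches of 1 transcript. The probe of Nr1d2 is listed as unmapped in the files.

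Per2 showed the largest difference among the 10 genes, and its promoter is shown for that reason. These are the 250 bases before its start in RefSeq (GRCr8, chr9:99496994-99497243, minus strand), 5′ to 3′. Capitals mark a D-box, TTATGTAA, which factors of the Dbp family bind, and a noncanonical E-box, CACGTT, a variant of the element bound by the Arntl and Clock pair.
Per2 promoter: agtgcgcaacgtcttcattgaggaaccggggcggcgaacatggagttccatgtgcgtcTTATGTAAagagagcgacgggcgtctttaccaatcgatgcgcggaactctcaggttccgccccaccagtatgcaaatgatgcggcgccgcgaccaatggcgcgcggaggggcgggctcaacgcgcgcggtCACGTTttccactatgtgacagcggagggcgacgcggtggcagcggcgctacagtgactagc

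Each motif was searched on both strands in windows of 300 bases around a start in 33469 RefSeq promoters. The 10 genes had 11 such windows, and Cry1 had none in the table. TTATGTAA was in 0.893% of all windows and, among the 11, in that of Per2. CACGTT was in 4.83% of all windows and in 3 of the 11, those of Per2, Cry2 and Nr1d1. Unlike the other motifs, CACGTT was not in the planned set, and its overlap with genes that differed was not tested. The canonical E-box, CACGTG, was in 6.42% of all windows and in 1 of the 11, a start of Nr1d1. AGGTCA, the core of the element bound by Nr1d1 and Nr1d2, was in 16.2% of all windows and in 2 of the 11, those of Arntl and Nr1d2. TGACGTCA, the cyclic AMP element, was in 1.83% of all windows and in 0 of the 11. A match describes letters in the window and is not a measured site.

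Values are log2 processed signal minus the 75th percentile of the array, called scaled log2 signal here. Each gene was read by its brightest probe, groups were compared with limma over all 13 arrays, and p-values were adjusted by Benjamini-Hochberg over all 17244 genes with a threshold of 0.05. Probes differ in how strongly they bind, so levels are compared between rats for 1 gene and not between genes.

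Each model lay on a slide and a scan of its own, so a difference between models, slides or hours of sampling cannot be told apart. Within a slide the trauma and sham arrays lay in different columns, and the order of the columns was reversed between the slides. The 2 sham groups thus also differed in column, as did the 2 trauma groups. Slide column therefore cannot be told apart from group in any of the comparisons, and its part was not tested. The share of spots well above background was 67.05% to 74.1%, with 72.7% to 74.1% in column 1 (percussion trauma and rotational sham) and 67.05% to 72.5% in column 2 (percussion sham and rotational trauma). No spot was saturated (0 on any array), and replicates of a group correlated at 0.988 to 0.997 across genes. All 5 neuron markers were measured. Between the shams 2 lay above 0 and 3 below, with a median of -0.03, and 1 passed, Slc17a7, the vesicular glutamate transporter of cortical neurons (-0.53, adjusted p = 0.0478). All 5 striatum markers were measured too and lay lower in percussion sham (5 of 5). Of these 3 passed the test, among them the dopamine receptor gene Drd2 (-1.88, SE 0.34, adjusted p = 0.0046). The summed signal of the striatum markers was 1.64 to 1.80 in percussion sham and 1.98 to 3.26 in rotational sham on the scaled log2 scale. Its part in the sham differences below was not tested. In bulk tissue fewer cells of a type and less RNA in each cell cannot be told apart.

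Between the sham groups, Per2 was 2.13-fold higher in percussion sham, and Cry2 and Nr1d1 were lower, by 1.36-fold and 1.33-fold. The other 7 genes did not pass the test. With 3 of 10 called, the clock genes stood beside a background of 23.7% of all genes (9.86% of all genes higher and 13.9% lower), so the share is near that of the whole array. Higher genes made up 41.6% of all genes called, 31% under another background correction (normexp) and 68.1% with no filter on dim probes. The groups did not overlap for 6 of the 10 genes (Per2, Dbp, Clock, Arntl, Cry2 and Nr1d1), against 41.7% of all genes. The median difference of the 10 genes was 0.20, against -0.06 over all genes, and the median absolute difference was 0.31, against 0.20.

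**Figure D1:**
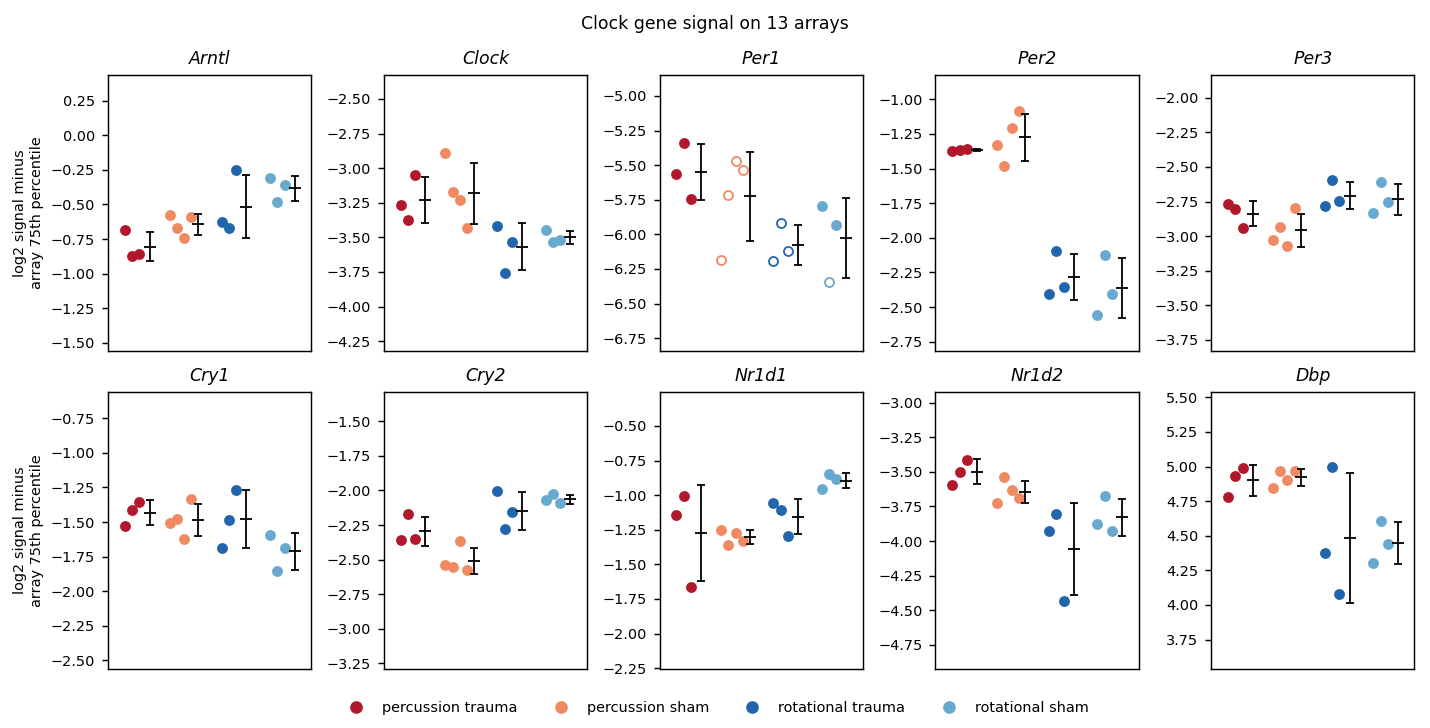
Scaled log2 signal (log2 processed signal minus the 75th percentile of the array) of the 10 clock genes on 13 arrays. Each point is 1 rat, the bars give the group mean ± SD, open points are arrays on which not all spots of the probe were well above background, and every panel spans 2 log2 units. Per2 lies between -1.48 and -1.08 in all 7 percussion rats and between -2.56 and -2.09 in all 6 rotational rats.

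Among the activators, Arntl was at -0.69, -0.87 and -0.86 in percussion trauma, at -0.57, -0.67, -0.74 and -0.59 in percussion sham, at -0.63, -0.67 and -0.25 in rotational trauma, and at -0.31, -0.48 and -0.36 in rotational sham. Every percussion sham rat lay below every rotational sham rat, and the rotational trauma rats spanned both. The difference between the shams was -0.26 (SE 0.10, adjusted p = 0.0843) by the brighter probe, which did not pass. The other Arntl probe differed by -0.55 (SE 0.14, adjusted p over probes 0.0163) and passed. Its means were -2.97 ± 0.13 in percussion sham (SD, n = 4) and -2.41 ± 0.20 in rotational sham (SD, n = 3). Both probes thus lay lower in percussion sham, and their own difference was not tested.

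Clock, the partner of Arntl, was at -2.89, -3.17, -3.23 and -3.43 in percussion sham and at -3.44, -3.53 and -3.52 in rotational sham. The groups did not overlap but the closest rats were nearly level. The difference was 0.32 (SE 0.13, adjusted p = 0.0891), and the second Clock probe differed by -0.29 (SE 0.19, adjusted p = 0.268). That probe was dimmer, at -5.44 ± 0.26 in percussion sham (SD, n = 4) and -5.15 ± 0.30 in rotational sham (SD, n = 3), though well above background on all these arrays. The direction for Clock therefore depends on the probe, and neither probe passed.

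Among the repressors, Per2 was at -1.38, -1.37 and -1.36 in percussion trauma, at -1.33, -1.48, -1.21 and -1.08 in percussion sham, at -2.40, -2.09 and -2.35 in rotational trauma, and at -2.56, -2.13 and -2.40 in rotational sham. The 7 percussion rats and the 6 rotational rats did not overlap, with or without trauma. Per2 was higher in percussion sham than in rotational sham by 1.09 (SE 0.12, 95% interval 0.83 to 1.35, adjusted p = 0.000668). Of all genes 3.2% had a larger absolute difference between the shams.

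Per1, an early responder to light and hormones in the clock, was close to background. All its spots were well above background on 3 of 3 percussion trauma arrays, 0 of 4 percussion sham arrays, 0 of 3 rotational trauma arrays and 2 of 3 rotational sham arrays. Detection thus went with the slide column, since percussion trauma and rotational sham lay in column 1 and the other groups in column 2. Its measured means were -5.55 ± 0.20, -5.73 ± 0.32, -6.08 ± 0.14 and -6.02 ± 0.29 in that order (SD, n = 3, 4, 3 and 3). Where no array of a group detected Per1, the mean rests on signal near background, so no fold is given. Between the shams Per1 differed by 0.30 (95% interval -0.10 to 0.70, adjusted p = 0.251). Percussion trauma differed from percussion sham by 0.18 (95% interval -0.22 to 0.58, adjusted p = 0.75). It differed from rotational trauma by 0.53 (95% interval 0.10 to 0.95, adjusted p = 0.126). None of these passed. The filter kept Per1 through percussion trauma alone, so a higher signal in that group is not independent of the filter.

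Per3, a period gene with a smaller part in the core loop, gave no single answer. Its brightest probe differed between the shams by -0.22 (SE 0.09, adjusted p = 0.0804). Probe 2 differed by 0.54 (SE 0.30, adjusted p = 0.199) and probe 3 by 0.01 (SE 0.18, adjusted p = 0.967). Probe 3 was well above background on 1 of 4 percussion sham arrays and on 3 of 3 rotational sham arrays, so its sham difference rests on undetected arrays. None of the 3 probes passed in this comparison (0 of 3), and their signs differed.

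The cryptochromes bind the Arntl and Clock pair together with the period proteins. Cry2 was at -2.36, -2.17 and -2.35 in percussion trauma, at -2.54, -2.56, -2.37 and -2.57 in percussion sham, at -2.01, -2.28 and -2.15 in rotational trauma, and at -2.07, -2.03 and -2.09 in rotational sham. Percussion sham lay below the other 3 groups in all 4 rats. The sham difference was -0.44 (SE 0.08, 95% interval -0.62 to -0.26, adjusted p = 0.005). Cry1 was at -1.48 ± 0.12 in percussion sham (SD, n = 4) and -1.71 ± 0.13 in rotational sham (SD, n = 3), a difference of 0.23 (SE 0.11, adjusted p = 0.14) that did not pass.

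Of the nuclear receptors that repress Arntl, Nr1d1 was at -1.15, -1.004 and -1.66 in percussion trauma, at -1.25, -1.36, -1.27 and -1.33 in percussion sham, at -1.06, -1.11 and -1.30 in rotational trauma, and at -0.96, -0.85 and -0.89 in rotational sham. The 2 sham groups were each tight and did not overlap. Their difference was -0.41 (SE 0.13, adjusted p = 0.0431), close to the threshold. The call was lost in 12 of 22 alternatives, with differences of -0.44 to -0.33 over all 22 and an adjusted p of up to 0.118. It was lost under normexp, with the slide row as a term, with the replicate number as a block and on leaving out any 1 of the 3 rotational sham arrays, any 1 of the 4 percussion sham arrays, or rotational trauma replicate 1 or 2. Nr1d2 differed by 0.18 (SE 0.13, adjusted p = 0.334), so Nr1d1 passed and its close relative did not. The difference between them was not tested.

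The output gene Dbp was at 4.78, 4.93 and 4.99 in percussion trauma, at 4.85, 4.97, 4.90 and 4.97 in percussion sham, at 4.37, 4.996 and 4.08 in rotational trauma, and at 4.30, 4.60 and 4.44 in rotational sham. The sham groups did not overlap, while rotational trauma replicate 2 stood at the percussion level and replicate 3 below every other rat. Dbp was 0.47 higher in percussion sham (SE 0.17, 95% interval 0.10 to 0.85, adjusted p = 0.0651), which did not pass. All 3 Dbp probes gave like differences, 0.47, 0.45 and 0.43. The pooled spread includes that of rotational trauma (SD 0.47, against 0.06 in percussion sham). The Dbp difference passed in 6 of 22 alternatives and did not pass in the other 16. It passed without rotational trauma replicate 2 (adjusted p = 0.00913), without replicate 3 (adjusted p = 0.0323) and with the sham arrays alone (adjusted p = 0.0114). With every array kept, it passed under normexp, at 0.48 (adjusted p = 0.048), and under quantile normalisation, at 0.57 (adjusted p = 0.0328). In the table of log2 values deposited by the authors it passed at 0.59 (adjusted p = 0.0319). The call thus depended on the scaling as well as on the arrays used.

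**Figure D2:**
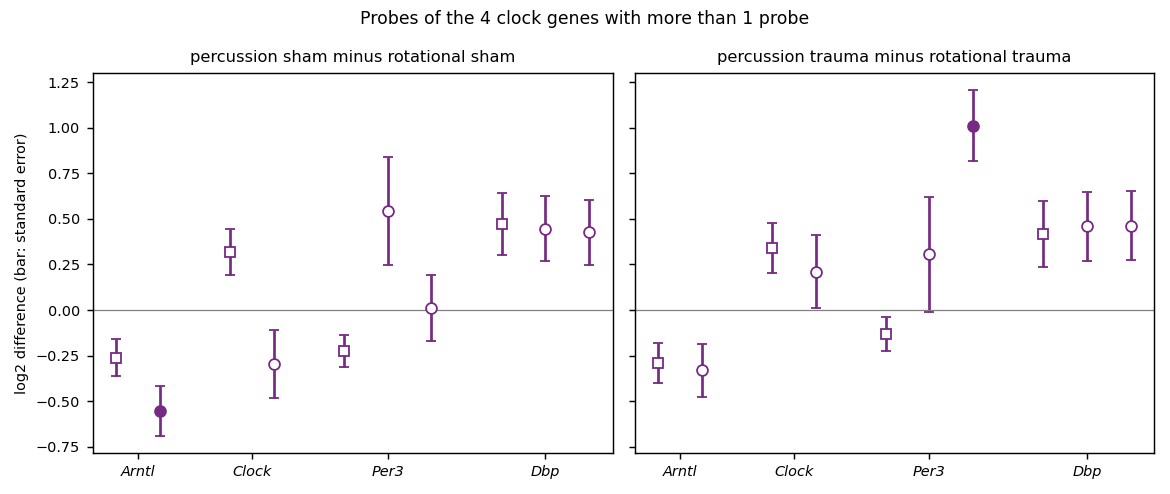
Log2 differences of each probe of Arntl, Clock, Per3 and Dbp between the sham groups (left) and between the trauma groups (right), percussion minus rotational. Squares are the brightest probe of a gene and circles the others, bars are standard errors, and filled symbols passed an adjusted p of 0.05 over all probes. The 3 Dbp probes lie together at 0.43 to 0.47 in the left panel, and those of Clock lie on both sides of 0.

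The trauma groups gave the same contrast of models in other rats, with the spread still estimated over all 13 arrays. Per2 was again higher in percussion rats, by 0.92 (SE 0.13, 95% interval 0.64 to 1.20, adjusted p = 0.00318), which is 1.89-fold. Nr1d2 was higher in percussion trauma than in rotational trauma by 0.56 (SE 0.14, adjusted p = 0.0403). It was at -3.59, -3.50 and -3.41 in percussion trauma and at -3.93, -3.80 and -4.44 in rotational trauma. This call was lost in 16 of 22 alternatives, among them leaving out rotational trauma replicate 3, which lowered the difference to 0.37 (adjusted p = 0.074). It was also lost on leaving out rotational trauma replicate 1, rotational sham replicate 1 or 3, percussion sham replicate 2, 3 or 4, or any 1 percussion trauma array. With 2 of 10 called, the background was 6.87% of all genes. Groups did not overlap for 5 of 10 (Per1, Per2, Arntl, Clock and Nr1d2), against 27.1% of all genes. This count includes Per1, which was well above background on 0 of 3 rotational trauma arrays. The filter kept Per1 through percussion trauma alone, the higher group here.

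Cry2 and Nr1d1 did not pass between the trauma groups, at -0.15 (SE 0.09, adjusted p = 0.315) and -0.12 (SE 0.14, adjusted p = 0.63). Dbp differed by 0.42 (SE 0.18, adjusted p = 0.183), and without rotational trauma replicate 2 by 0.67 (adjusted p = 0.0128). Arntl differed by -0.29 (SE 0.11, adjusted p = 0.131) and its other probe by -0.33 (SE 0.15, adjusted p = 0.192). Per3 probe 3 was higher in percussion trauma, by 1.01 (SE 0.19, adjusted p over probes 0.0135), but it was well above background on 1 of 3 rotational trauma arrays. The brightest Per3 probe differed by -0.13 (SE 0.09, adjusted p = 0.403).

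**Figure D3:**
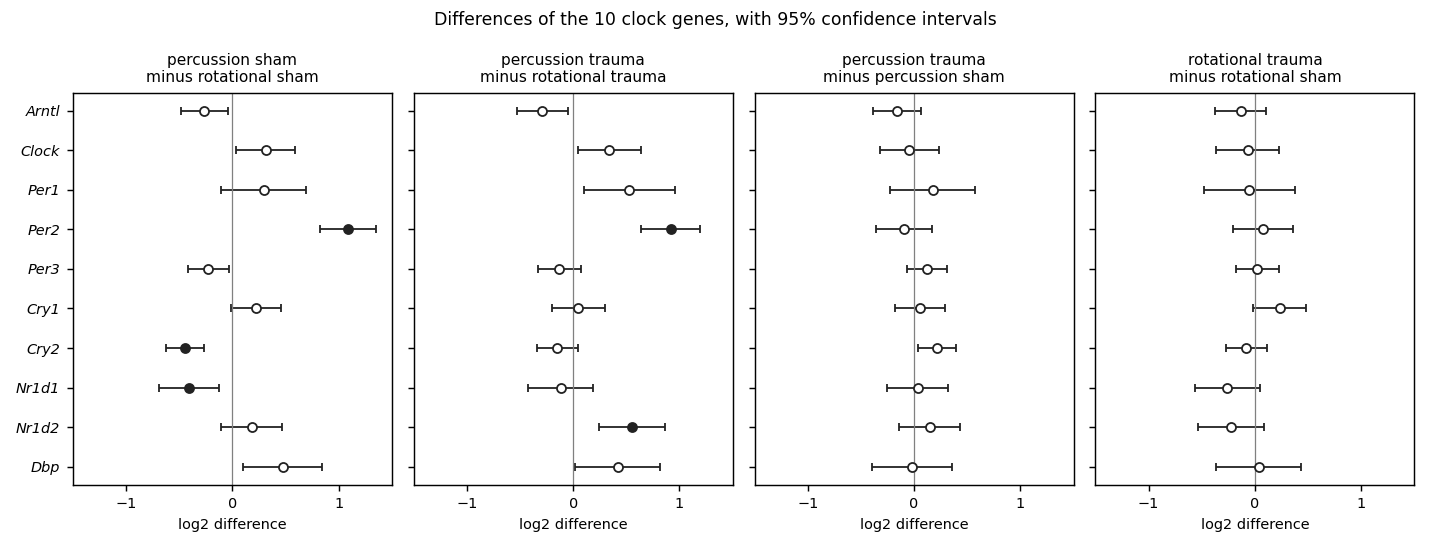
Log2 differences of the 10 clock genes in 4 comparisons, with 95% confidence intervals from limma. Filled points passed an adjusted p of 0.05 over all genes. Per2 stands at 1.09 between the shams and at 0.92 between the trauma groups, and no filled point appears in the 2 panels that set trauma against its own sham.

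Trauma against its own sham moved none of the 10 genes past the threshold in either model. In the percussion model 0 of 10 passed with limma, against 0% of all genes, and 1 of the 10 had an unadjusted p under 0.05. That gene was Cry2, at 0.21 above its sham (SE 0.08, 95% interval 0.03 to 0.39, adjusted p = 0.372), with no overlap between the groups. It was the 1 of 10 without overlap, beside 9.73% of all genes. Over all genes 1945 had an unadjusted p under 0.05 in that model.

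The other percussion intervals covered 0. Per2 differed from percussion sham by -0.09 (95% interval -0.36 to 0.17) and Dbp by -0.02 (95% interval -0.39 to 0.35). Arntl differed by -0.16 (95% interval -0.39 to 0.06). The median of the 10 differences was 0.04, against 0.01 over all genes.

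In the rotational model 0 of 10 passed with limma, against 0.0116% of all genes, and 0 of the 10 had an unadjusted p under 0.05, against 1183 of all genes. Nr1d1 had the largest shift. It was 0.26 lower in rotational trauma (SE 0.14, 95% interval -0.56 to 0.05, adjusted p = 0.791), and it was the 1 of 10 genes whose groups did not overlap, beside 15.5% of all genes. Per2 differed by 0.08 (95% interval -0.20 to 0.36). Cry1 differed by 0.23 (95% interval -0.02 to 0.48), the highest of the 10. The median of the 10 differences was -0.06, against -0.03 over all genes.

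Dbp in rotational trauma averaged 4.48 ± 0.47, against 4.45 ± 0.15 in rotational sham (SD, n = 3 each), so the means were level and the spread was not. The interval of the difference ran from -0.37 to 0.44. Without replicate 2 the difference was -0.22 (adjusted p = 0.61).

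The trauma effects of the 2 models were also set against each other. By the layout of the arrays, this contrast also sets column 2 (rotational trauma and percussion sham) against column 1 (percussion trauma and rotational sham). A difference of trauma effects and a difference between slide columns cannot be told apart here. With limma 0 of 10 passed, against 0% of all genes, and 1 of the 10 had an unadjusted p under 0.05, against 1476 of all genes. Again this was Cry2, whose rotational effect minus percussion effect was -0.30 (SE 0.12, adjusted p = 0.537). Per3 probe 3 lay on opposite sides, 0.51 above percussion sham in percussion trauma and 0.49 below rotational sham in rotational trauma, but the difference of the effects did not pass (adjusted p over probes 0.294). Detection of that probe also changed with the slide column, on 3 of 3, 1 of 4, 1 of 3 and 3 of 3 arrays in the order percussion trauma, percussion sham, rotational trauma, rotational sham.

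Apart from the group means, single rats could be read by how far each stood from the mean of its own group. Among the 45 pairs of clock genes the correlation of these deviations over 13 arrays ran from -0.93 to 0.84, with a median of -0.03. The lowest was between Nr1d2 and Arntl, the receptor gene and the gene its protein represses, and the highest between Nr1d2 and Dbp. Both pairs were singled out after the values were seen. Arntl and Dbp stood at -0.78. Points share a slide, a hybridisation and a group mean, and no test was made.

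Much of the spread lay in rotational trauma. There replicate 2 had Dbp 0.51 above its group mean, and replicate 3 had Dbp 0.40 below it. Without that group the correlation of Nr1d2 and Arntl was -0.79 over 10 arrays, that of Nr1d2 and Dbp 0.79, and that of Arntl and Dbp -0.76. Within the 7 percussion arrays the values were -0.75, 0.79 and -0.65. The sign was therefore the same on both slides, since the 6 rotational arrays gave -0.98, 0.85 and -0.82. Nr1d1 and Arntl differed between slides, with 0.20 over the 7 percussion arrays and -0.95 over the 6 rotational arrays, and -0.21 over all 13.

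The genes most like Dbp by the same deviations, among 17243 others over 13 arrays, were Sorcs1 (0.97), Ciart (0.97), Cadps (0.96), Tdp2 (0.94) and Aste1 (0.94). Ciart encodes a repressor of the Arntl and Clock pair. Ciart ranked 2 and Nr1d2 ranked 67 from the top, while Arntl ranked 17052. Without rotational trauma, over 10 arrays, Ciart stood at 0.87 (rank 93), Cadps at 0.91 (rank 37) and Sorcs1 at 0.83 (rank 174), while Tdp2 stood at 0.59 and Aste1 at 0.67. Over the 7 percussion arrays Sorcs1 stood at 0.855 (rank 478), Cadps at 0.827 (rank 676) and Ciart at 0.718 (rank 1692). Tdp2 stood at 0.27 and Aste1 at 0.09 there, so their likeness to Dbp was seen mainly on the rotational slide. Dbp varied little in percussion sham (SD 0.06), which limits what these 7 arrays can show.

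**Figure D4:**
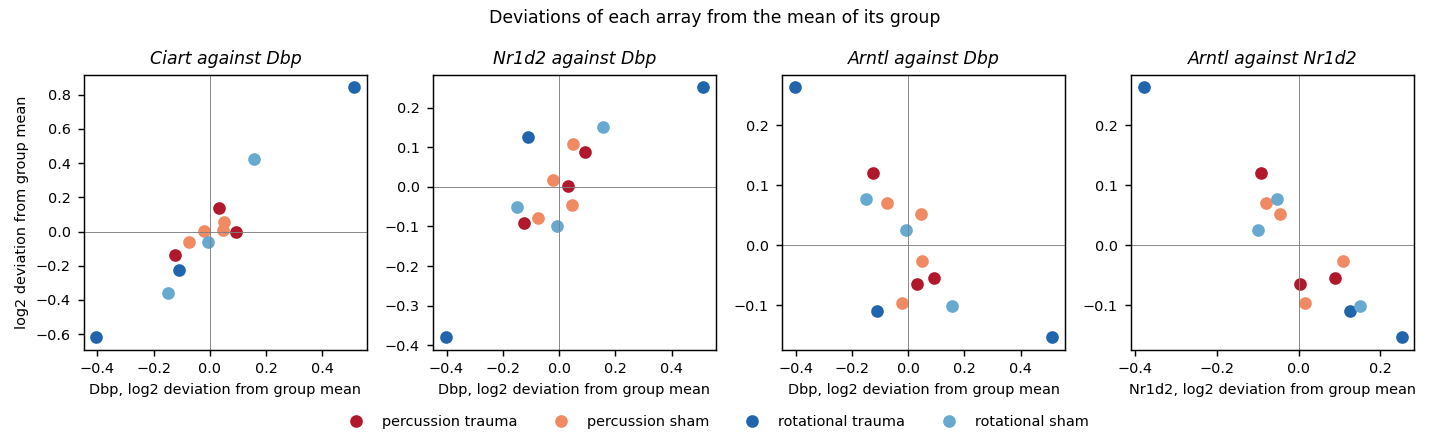
Deviation of each array from the mean of its group on the log2 scale, for Ciart, Nr1d2 and Arntl against Dbp, and for Arntl against Nr1d2. Each point is 1 rat, coloured by group. The rotational trauma rats with Dbp at 0.51 above and 0.40 below their mean lie at the ends of the Dbp panels, and Arntl lies lower where Dbp and Nr1d2 lie higher.

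Of the other clock genes, 19 were measured. Between the shams 2 of 19 passed, a smaller share than the 23.7% of all genes. Bhlhe40, which encodes a repressor that competes with the Arntl and Clock pair for E-boxes, was higher in percussion sham by 0.93 (SE 0.15, adjusted p = 0.003). Npas2, which encodes a partner that can stand in for Clock, was lower, with a difference of -0.33 (SE 0.06, adjusted p = 0.0042). The same 2 genes passed between the trauma groups (2 of 19, against 6.87% of all genes), Bhlhe40 at 1.04 (SE 0.16, adjusted p = 0.00613) and Npas2 at -0.25 (SE 0.06, adjusted p = 0.0396).

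Bhlhe40 was at -1.08, -0.84 and -0.94 in percussion trauma, at -0.83, -0.84, -0.73 and -0.72 in percussion sham, at -2.05, -1.70 and -2.22 in rotational trauma, and at -2.10, -1.48 and -1.56 in rotational sham. As for Per2, the percussion and rotational rats did not overlap. Ciart stood 0.81 higher in percussion sham (SE 0.28, adjusted p = 0.0581), which did not pass. Against their own shams 0 of 19 passed in either model. The smallest adjusted p-values were 0.708 for Npas2 in the rotational model and 0.363 for Cipc, at -0.23, in the percussion model.

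2 further lists held genes with inducers in common with Per1 and Per2. Of 12 immediate early genes, which neurons switch on when active, 10 were measured (Fosb and Npas4 were not). All 10 lay above 0 between the shams and 7 passed as higher in percussion sham (70%, against 9.86% of all genes), with a median of 1.19. Arc, an activity marker at synapses, was at 3.83, 3.62, 3.15 and 3.19 in percussion sham and at 0.26, -0.02 and 0.01 in rotational sham. The sham groups did not overlap for 7 of the 10 genes, against 41.7% of all genes. Not every gene was raised in all percussion sham rats. Ier2 was at 1.56, 1.32, 0.53 and 0.44 there and at 0.59, -0.004 and 0.37 in rotational sham. Between the trauma groups 5 of 10 passed as higher in percussion trauma, with a median of 0.92, against 6.87% of all genes in either direction.

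Against percussion sham all 10 immediate early genes lay lower in percussion trauma, with a median of -0.64, but none passed (0 of 10, smallest adjusted p = 0.199). Per2, by comparison, differed there by -0.09. In the rotational model 4 lay above 0 and 6 below, with a median of -0.07. These are the same percussion sham arrays that enter both contrasts.

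Of 12 genes in the glucocorticoid list, all measured, 5 passed as higher in percussion sham than in rotational sham (Sgk1, Tsc22d3, Klf9, Errfi1 and Ddit4). This is 41.7% against 9.86% of all genes, and the median of the list was 0.25. The list also holds the receptor genes Nr3c1 and Nr3c2, which are not response genes. Ddit4, an inhibitor of growth signalling, differed by 1.22 (SE 0.16, adjusted p = 0.00136). Fkbp5, a cochaperone of the receptor and a common readout of the hormone, was at 0.30, 0.62, 0.81 and 0.71 in percussion sham and at 0.62, 0.50 and 0.56 in rotational sham, which overlap.

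Between the trauma groups 12 of 12 glucocorticoid genes lay lower in percussion trauma, and 1 passed, Nfkbia (-1.01, SE 0.21, adjusted p = 0.0175). Between the shams 9 of the 12 lay higher and 3 lower (Sult1a1, Nr3c1 and Nr3c2). In rotational trauma 10 of 12 lay above their sham, with a median of 0.48, but none passed (0 of 12, smallest adjusted p = 0.0747). The medians of all genes in these comparisons lay between -0.06 and 0.01. The glucocorticoid list also went with the slide column. Its mean summed signal was 4.27 in percussion sham and 4.28 in rotational trauma, both in column 2. In column 1 it was 4.09 in percussion trauma and 3.79 in rotational sham. Column and group cannot be told apart here, and the part of the column was not tested. The part of neuronal activity and of glucocorticoids in the Per2 difference was not tested.

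**Figure D5:**
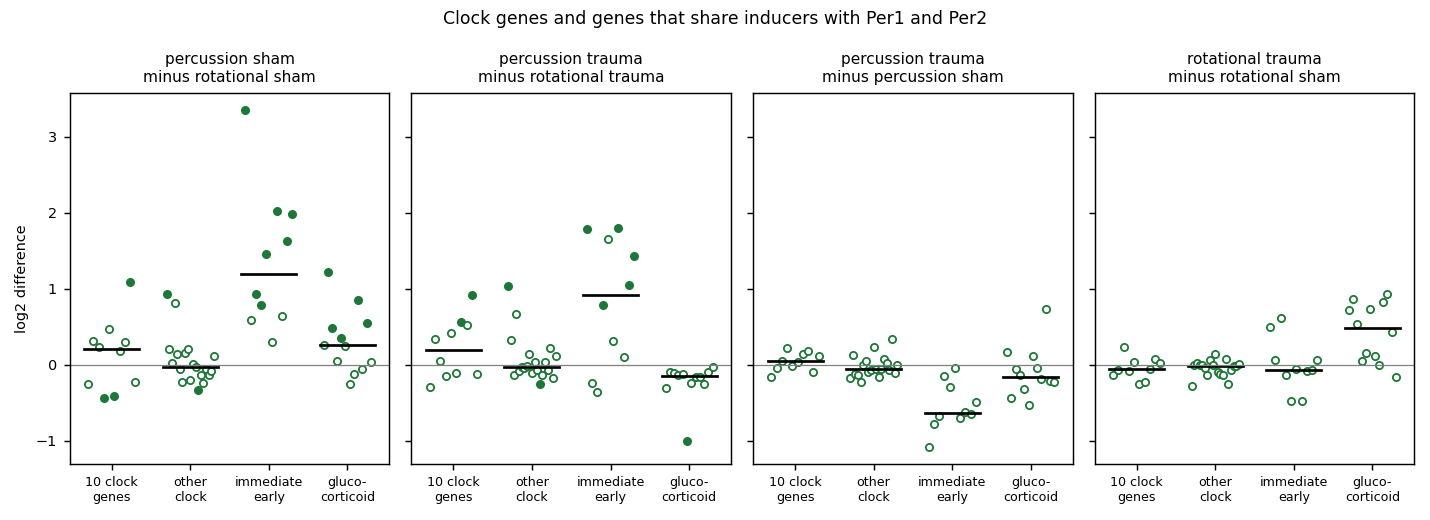
Log2 differences of the 10 clock genes, 19 other clock genes, 10 immediate early genes and 12 genes of the glucocorticoid list in 4 comparisons. Each point is 1 gene, filled where it passed an adjusted p of 0.05 over all genes, and lines are medians of the list. The immediate early genes have a median of 1.19 between the shams and -0.64 between percussion trauma and its sham, and the 10 clock genes have medians of 0.20 and 0.04.

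Meninges markers moved beside the trauma comparisons, and by more than any of the 10 clock genes there. They lay higher in trauma in both models (5 of 5 each, 0 passing, medians 1.34 in the percussion model and 1.23 in the rotational model), with a summed signal of 3.96 to 4.99 in percussion trauma against 2.29 to 3.50 in percussion sham, and of 3.59 to 4.58 in rotational trauma against 2.35 to 3.22 in rotational sham. Of the choroid plexus markers Folr1 and Kl were not well above background in any whole group. The measured ones, Ttr and Kcnj13, lay higher in trauma in both models (2 of 2 each, 0 passing), with medians of 1.27 in the percussion model and 1.04 in the rotational model. Between the shams 1 of 5 microglia markers passed (P2ry12, -0.63), with 2 above 0, 3 below and a median of -0.02. Of 4 endothelial markers 1 passed (Cldn5, -0.45), with 1 above 0, 3 below and a median of -0.24. Of 5 meninges markers 1 passed (Ogn, 1.27), with 4 above 0, 1 below and a median of 0.03. Of 5 oligodendrocyte markers 4 lay higher in rotational trauma (median 0.41) and 2 in percussion trauma (median -0.01), each against its own sham, with 0 passing. Between the shams 3 of them lay above 0 and 2 below, with 0 passing. Of 5 astrocyte markers 4 lay lower in percussion sham than in rotational sham (median -0.17), with 0 passing. The part of these cells in the clock values was not tested.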

How the data were processed

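Per the file headers, the authors extracted spot intensities with Agilent Feature Extraction 10.5.1.1. The deposited intensity used here is the processed signal, which is background-subtracted and detrended. The authors also deposited a table of log2 values with a shared median of 8.15 and nearly equal sorted values on every array. Its normalisation steps are not given in the sources used here. Probes carry rn4 positions per the file headers.

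Of 62976 spots 4259 were controls. Outlier spots were dropped and spots of a probe averaged. Probes whose spots were all well above background throughout 1 or more groups were kept (20004 probes). Names were updated through RefSeq's GRCr8 table, by accession for 18006 probes, by symbol for 2654 and by synonym for 559. limma 3.58.1 (R 4.3.3) fitted 1 mean per group (9 residual df). The fit was tested on simulated data. The members and lists were chosen with earlier results of these data known. All 10 members and fixed companion lists are named, and the likeness to Dbp names the first 5 genes with a symbol. Replicates are labelled as separate samples, so p-values measure the spread between these samples. The alternatives were 2 scalings, the deposited table, filters, probes, samples, replicate and row terms and leaving out each array.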

Additional observations from a re-analysis of the deposited data

How the results depend on the processing

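Under 22 alternatives the count of clock genes called was 0 in both comparisons of trauma with its own sham and in the difference of the effects. Per2 and Cry2 passed between the shams under all 22 (Per2 at 0.95 to 1.21, Cry2 at -0.49 to -0.40), and Per2 between the trauma groups under all 22 (0.82 to 1.01). With only the groups compared, 5 passed between the shams, and leaving out 1 array gave 2 to 5 (5 without rotational trauma replicate 3). Between the trauma groups 1 passed in place of 2 under normexp, quantile normalisation, the deposited table, only the groups compared and the slide row as a term, and leaving out 1 array gave 1 to 3. The sign turned for 44 of 1085 values under the alternatives, in 17 comparisons of a single gene, and none of them passed the test (0 of 44). Under normexp Per1 stood at -0.15 between the shams, Per3 at -0.0214 in the rotational model and Nr1d1 at -0.0305 in the percussion model. With quantile normalisation Dbp stood at 0.0147 and Nr1d1 at -0.0020 in the percussion model, and Clock at 0.0208 in the difference of effects. In the deposited table Per1 stood at 0.0353 in the rotational model, Nr1d1 at -0.0070 in the percussion model, and Per1 at 0.0341 and Clock at 0.0063 in the difference of effects. With the mean of all probes Per3 stood at 0.11 between the shams, -0.0903 in the rotational model and 0.40 between the trauma groups, Dbp at -0.0017 in the rotational model, Clock at 0.18 in the percussion model and Arntl at -0.0957 in the difference of effects. With the slide row as a term Per1 stood at 0.0334 in the rotational model.

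Leaving out 1 array spanned 0 in the rotational model for Per1 (-0.21 to 0.0637), Per2 (-0.0181 to 0.20), Per3 (-0.0321 to 0.0843), Clock (-0.14 to 0.0235) and Dbp (-0.22 to 0.24). In the percussion model it did so for Dbp (-0.066 to 0.0419), Clock (-0.14 to 0.0502) and Nr1d1 (-0.10 to 0.23). In the difference of effects it did so for Dbp (-0.20 to 0.26), Clock (-0.12 to 0.0701) and Arntl (-0.10 to 0.11), and between the trauma groups for Cry1 (-0.0542 to 0.16) and Nr1d1 (-0.25 to 0.0801). For the mean of probes the construction shows the cause. Elsewhere the cause was not tested.

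Same-number arrays of trauma and sham correlated at 0.11, 0.27 and 0.02 in the rotational model and at 0.28, -0.02 and -0.01 in the percussion model. Arrays of different numbers ran from -0.225 to 0.133 and from -0.236 to 0.227. With so few arrays these values cannot decide whether replicate numbers pair the rats. With the replicate number as a block, 4 passed between the shams (Per2, Cry2, Per3 and Clock, with Nr1d1 lost at -0.40, adjusted p = 0.0764), 1 between the trauma groups (Per2, with Nr1d2 lost), and 0, 0 and 0 in the other 3 comparisons, where Clock turned to 0.0604 in the difference of effects. Over all genes, the calls were 2 in the rotational model, 0 in the percussion model and 0 for the difference, against 356, 2979 and 3780 without a filter on dim probes, where 26257 genes were tested. Between the shams 4090 genes were called, against 7623 without the filter (68.1% higher) and 1865 without rotational sham replicate 3. Between the trauma groups 1185 were called, and 385 to 2368 under the alternatives. Signal near background limits Per1 and Per3 probe 3, and 3 or 4 arrays a group limit all values.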
